A study of Mus musculus with 2 samples.

Results

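The last exons of protein-coding genes were examined in reduced representation bisulfite sequencing (RRBS) of liver DNA from WT mice and from KI mice, which carry on both alleles a Uhrf1 gene whose tandem Tudor domain (TTD) bears the YP187/188AA substitution. A last exon is the 3′-most exon of a protein-coding transcript with at least 3 exons on an autosome, and its CpGs were kept where they lay more than 2 kb from any annotated transcript start and were read at least 5 times in both libraries. Genes named Zfp followed by a digit were left out. This gave 64237 CpGs, or 2.42% of the 2654195 CpGs that both libraries shared, with each strand of a CpG counted as a site of its own. Of 16810 genes that met the rule, 3930 had at least 1 such CpG, 3073 had at least 5 and could be tested as a whole, 857 had 1 to 4, and 12880 had none, so the description covers the part of the last exons that RRBS reaches.

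Both groups were 3-month-old male mice, C57BL/6 by the labels and C57BL/C as the study's methods print it, and in each the DNA of 3 mice was pooled into 1 library. The KI library is labelled as knock out in 1 field and as KI in its title, and it was taken as KI. The files hold methylation calls only, so neither the substitution nor the cell types of the liver could be checked in them. The coverage added over all listed cytosines, in which a read counts once for each cytosine it spans, came to 192144002 in WT and 173109895 in KI. In last exons the median coverage of a CpG was 49 reads in WT and 47 in KI, against 37 in each over all shared CpGs. With 1 pool per genotype there was no spread between mice to compare with. The tests and the 95% intervals below therefore compare 2 libraries, they cover counting error only, and they are too narrow because 1 read can span several CpGs and copies of 1 molecule cannot be told apart.

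The last exon holds the end of the coding sequence, the stop codon and most or all of the 3′ untranslated part of the mRNA, and like other exons within gene bodies it is usually methylated in mammals unless it lies in a CpG island. At replication each CpG becomes methylated on the old strand only. UHRF1 binds such hemi-methylated CpGs through its SRA domain and brings in DNMT1, which methylates the new strand, while its TTD binds di- and trimethylated lysine 9 of histone H3, a mark of silent chromatin. The KI substitution was made to remove the histone binding alone, and the comparison with WT asks how much of the methylation of last exons was kept without it.

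The coding windows shown here stand for the kinds of last exon described further on. They are 160 bases each of mm9, given 5′ to 3′ on the strand of the gene, with every CpG in capitals, and each is the stretch of pure coding sequence in its exon with the most measured cytosines. Wnt3a (chr11:59063232-59063391, minus strand), Krt86 (chr15:101309818-101309977, plus strand) and Kcna2 (chr3:106907317-106907476, plus strand) are shown because their last exons lost methylation in KI, Plec (chr15:76005274-76005433, minus strand) because it stayed high, and Evx2 (chr2:74493682-74493841, minus strand) because it was low in both libraries.
Wnt3a: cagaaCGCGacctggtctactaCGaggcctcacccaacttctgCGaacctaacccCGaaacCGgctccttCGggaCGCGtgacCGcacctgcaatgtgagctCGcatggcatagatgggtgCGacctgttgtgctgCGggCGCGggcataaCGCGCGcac
Krt86: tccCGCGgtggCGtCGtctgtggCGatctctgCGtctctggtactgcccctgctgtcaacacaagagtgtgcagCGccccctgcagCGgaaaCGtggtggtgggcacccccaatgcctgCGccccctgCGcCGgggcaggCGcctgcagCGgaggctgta
Kcna2: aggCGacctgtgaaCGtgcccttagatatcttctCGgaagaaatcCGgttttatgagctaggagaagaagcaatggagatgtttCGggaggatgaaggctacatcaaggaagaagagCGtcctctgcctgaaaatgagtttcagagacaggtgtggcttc
Plec: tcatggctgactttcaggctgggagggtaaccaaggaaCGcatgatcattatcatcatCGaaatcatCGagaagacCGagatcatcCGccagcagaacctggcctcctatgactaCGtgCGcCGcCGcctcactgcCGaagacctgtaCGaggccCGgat
Evx2: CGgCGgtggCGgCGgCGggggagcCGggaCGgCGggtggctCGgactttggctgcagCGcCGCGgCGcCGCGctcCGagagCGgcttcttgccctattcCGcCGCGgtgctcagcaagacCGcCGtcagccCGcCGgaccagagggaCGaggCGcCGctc

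The windows differ in how many CpGs they hold and in the bases beside them. The Wnt3a window holds 18 CpGs, of which 35 cytosines over both strands were measured, and their mean level went from 81.9% in WT to 48.9% in KI, by −33.0 points (SE of counting 3.88), with 34 of 35 lower. The 14 CpGs of the Krt86 window, measured on both strands, averaged 40.4% in WT and 18.5% in KI, with 26 of 28 cytosines lower. The Kcna2 window has only 6 CpGs, and its 9 measured cytosines averaged 44.6% in KI after a change of −27.4 points, all 9 lower. The Plec window, with 12 CpGs and 24 cytosines, averaged 92.8% and 92.1%. The Evx2 window, with 27 CpGs in the same length, averaged 4.08% and 2.09%.

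Single CpGs show the same contrast. In the Krt86 window, whose gene encodes a hair keratin, the antisense cytosine of the CpG at base 33 fell from 50.4% (119 reads) in WT to 7.69% (78 reads) in KI (Fisher's exact test, adjusted p = 4.13e-08), and that at base 120 fell from 66.7% (120 reads) to 24.7% (77 reads) (Fisher's exact test, adjusted p = 2.42e-06). The CpGs at bases 75 and 93 of the same window were already low in WT, at 9.48% and 4.17% on the antisense strand, and read 3.85% and 6.41% in KI. In the Plec window the antisense cytosine at base 59 read 98.2% in WT, with 276 reads, and 94.9% in KI, with 254, and its sense cytosine 95.3% and 96.5%. The Wnt3a window was thinly read over its 3′ part: from base 71 on, each cytosine had 6 reads in WT and 5 in KI, whereas the antisense cytosine at base 23, with 46 and 34 reads, fell from 84.8% to 47.1% (Fisher's exact test, adjusted p = 0.023).

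**Figure D1:**
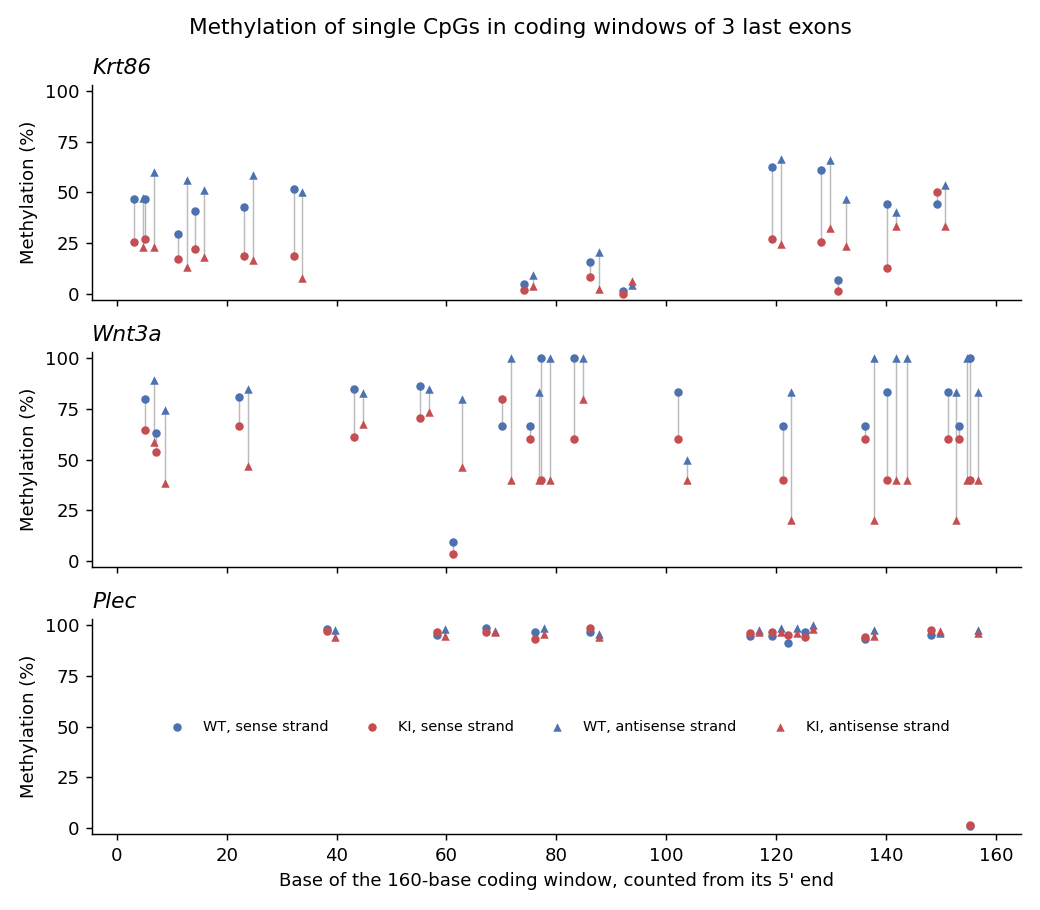
Methylation level in percent (y axis) of each measured cytosine along the 160-base coding windows of Krt86, Wnt3a and Plec (x axis, base from the 5′ end), for WT (blue) and KI (red), on the sense strand (circles) and the antisense strand (triangles), with grey lines joining the values of 1 cytosine. The KI points lie below the WT points at 26 of 28 cytosines in Krt86 and at 34 of 35 in Wnt3a, while in Plec both sets lie together near the top except at 1 cytosine of a CCGG site that is near 0 in both.

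Over all last exons, most methylation was kept. The 64237 CpGs had a mean level of 62.2% in WT against 60.1% in KI. The change was thus −2.13 points, with a 95% counting interval from −2.20 to −2.07, which is −3.43% of the WT level. The median CpG read 83.0% in WT and 79.3% in KI. Of the CpGs, 52.9% read lower in KI, 34.6% higher and 12.5% the same. The levels were split into a low and a high class in both libraries: 21.8% of the CpGs read below 10% in WT and 22.8% in KI, and 37.9% read 90% or more in WT and 32.4% in KI. The classes from 20% to 90% held more CpGs in KI, and the share from 80% to 90% was 15.6% in WT and 17.3% in KI. The low class includes cytosines of CCGG sites, which are described below. At 8409 such sites measured on both strands, the lower strand averaged 6.56% in WT. The levels were not split again without these sites, so the low class is not a measure of unmethylated last exons alone.

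**Figure D2:**
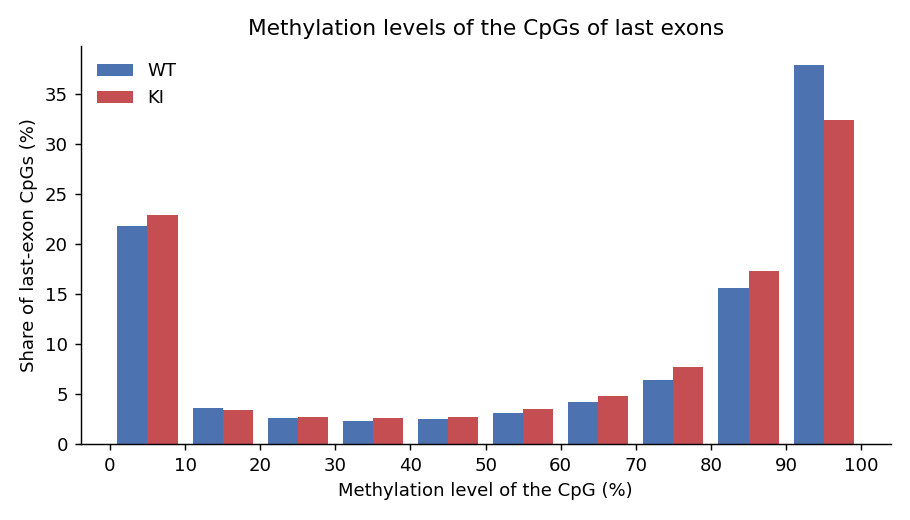
Share of the last-exon CpGs (y axis, percent) in steps of 10% of methylation level (x axis) in WT (blue) and KI (red). The top step held 37.9% of the CpGs in WT and 32.4% in KI, and every step between 20% and 90% held slightly more CpGs in KI. Cytosines of CCGG sites are included.

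Loss was seen on every autosome, from −1.27 points on chromosome 19 to −2.75 on chromosome 12, with chromosome 17, which carries Uhrf1, at −2.58. CpGs just outside the rule gave −1.48 points at 1500 to 2000 bp from a transcript start and −3.13 at a lower coverage of 4 reads, and those just inside it gave −1.93 in the first 500 bp beyond 2 kb and −1.98 at 5 reads.

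The cytosines of CCGG, the site at which MspI cuts the DNA for RRBS, carried lower values. The 18626 CpGs of last exons in such sites averaged 42.3% in WT and 40.9% in KI, changing by −1.38 points, and the 45611 others 70.4% and 67.9%, a change of −2.44. Where both strands of a CCGG site were measured, the higher strand averaged 78.1% in WT and the other 6.56% over 8409 sites, whereas outside such sites the strands averaged 74.6% and 67.6% over 20166 CpGs. In RRBS the cut ends are filled in with new cytosines, which are commonly unmethylated, and the part of this step in the values was not tested. Results on the bases beside a CpG and on codon positions are given without CCGG sites.

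Last exons lost less methylation on average than the other classes of sequence away from start sites. Internal exons changed by −2.53 points from a WT level of 69.7%, introns by −3.21 from 62.9%, and sequence between genes by −5.14 from 61.2%. The change of last exons was thus smaller by 0.392 points than that of internal exons (95% interval 0.307 to 0.477), by 1.08 than that of introns (1.005 to 1.15) and by 3.01 than that of sequence between genes (2.94 to 3.08). Relative to the WT level, last exons changed by −3.43% and internal exons by a similar −3.62%. Introns changed by −5.10% of their WT level, and sequence between genes, which started at nearly the level of last exons, by −8.41%. With CpGs matched on their WT level, where one part of the WT reads set the level and the rest served to measure the change, these differences became 0.219 (0.115 to 0.323), 0.983 (0.898 to 1.07) and 3.02 points (2.94 to 3.11). A further choice, made after the data were seen, kept CpGs only where the 16-base words around them had a median count under 5 in mm9. The differences were then 0.394, 0.706 and 1.98 points, so the gaps to introns and to sequence between genes were smaller by more than 1.5 times.

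Within single genes the last exon and the rest of the gene lay closer together. In 1239 genes with both a tested last exon and tested internal exons, the median change was −1.87 points in the last exon and −1.997 in the internal exons, and the last exon lost less in 642 of the genes. In 2287 genes with tested introns it was −1.86 points against −2.15, and the last exon lost less in 1195. The introns of genes whose last exon could be tested changed by −2.87 points and those of the other genes by −3.39, so genes that RRBS covered to their end also lost less in their introns.

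The bases beside a CpG went with the size of the loss. Outside CCGG sites, the 8161 last-exon CpGs with A or T on both sides changed by −3.78 points from 73.4%, the 22893 with A or T on 1 side by −2.63 from 73.0%, and the 14557 with C or G on both sides by −1.39 from 64.6%. The first and the last of these differed by −2.39 points (95% interval −2.63 to −2.14). The order held at like CpG density, counted within 100 bp on either side with the CpG itself included. The differences were −3.16 points with 1 to 4 CpGs, −2.36 with 5 to 9 and −1.89 with 10 to 14. Among CpGs at 80% or more in one part of the WT reads the order held too, with a difference of −1.98 (−2.31 to −1.65). In the windows shown, the CpG at base 23 of Wnt3a, in acga, is of the first kind, and the CpG at base 87 of Plec, in ccgc, is of the last.

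This order was not particular to last exons. Internal exons changed by −4.35, −2.93 and −1.67 points in the same 3 kinds, introns by −5.81, −4.22 and −2.71, and sequence between genes by −9.40, −7.12 and −4.30. Within each kind the last exons lost less than each other class: with A or T on both sides by 0.571 points than internal exons (0.310 to 0.833), by 2.04 than introns and by 5.63 than sequence between genes, and with C or G on both sides by 0.282 (0.108 to 0.456), 1.32 and 2.91. C or G on both sides made up 31.9% of the last-exon CpGs outside CCGG sites, 28.5% of those of internal exons, 26.2% of introns and 32.1% between genes.

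**Figure D3:**
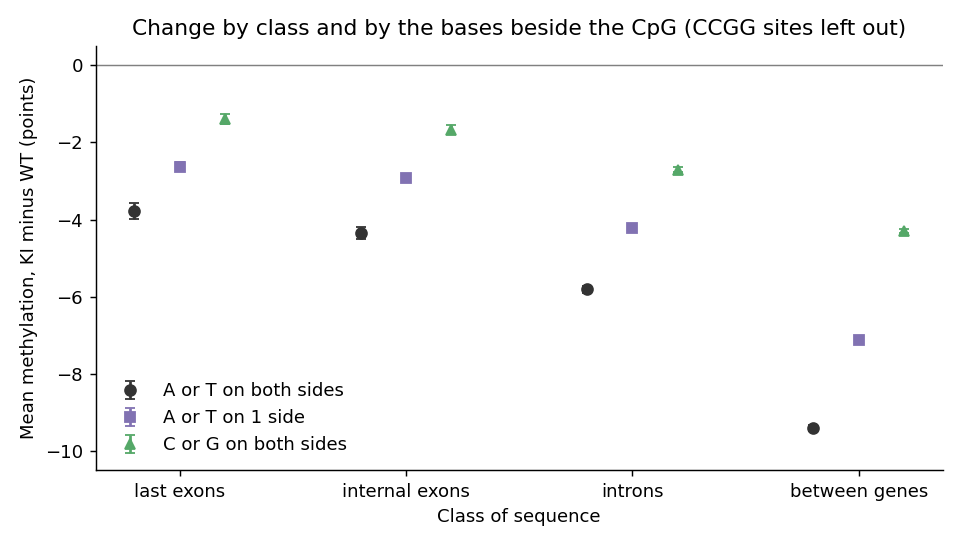
Mean methylation change, KI minus WT in percentage points (y axis), of CpGs outside CCGG sites in 4 classes of sequence (x axis), by the bases on either side of the CpG, with 95% intervals of counting error. In every class the CpGs with A or T on both sides (black) lost most and those with C or G on both sides (green) least, and within each kind last exons lost least, from −3.78 to −1.39 points.

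Taken over all their CpGs, the coding and untranslated parts of the last exon changed by similar amounts. The coding part, with 37975 CpGs, changed by −2.20 points from 62.1%, and the untranslated part, with 26262, by −2.04 from 62.4%. Without CCGG sites the values were −2.43 (−2.52 to −2.33) and −2.46 (−2.61 to −2.32), which overlap. Split by CpG density, CCGG sites included, the coding part lost more points in each class. With 1 to 4 CpGs it changed by −2.73 (−3.03 to −2.43) and the untranslated part by −1.91 (−2.09 to −1.72). With 5 to 9 the values, −2.45 and −2.31, had overlapping intervals. With 10 to 14 they were −2.42 from 72.4% and −1.79 from 56.2%, or −3.35% and −3.18% of the WT level. In the first 250 bp after the 3′ splice site the change was −2.27 points and in the next 250 bp −2.35 (−2.50 to −2.20), and it was −1.45 (−1.91 to −0.993) in the last step before 2000 bp. Counted back from the transcript end, the step from 1500 bp changed by −1.70 (−1.96 to −1.44). The last 250 bp before the end changed by −2.73 (−2.96 to −2.49), the first 250 bp after it by −2.05, and the steps from 1000 bp after it by −3.05 to −3.30, values near that of introns. Upstream of the exon the steps ranged from −1.86 to −3.18. Without CCGG sites, cytosines at the 3rd codon position changed by −2.78 points, those at the 2nd by −2.27 and those at the 1st by −2.19. Outside CCGG sites the sense strand of the gene changed by −2.56 and the antisense strand by −2.34.

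**Figure D4:**
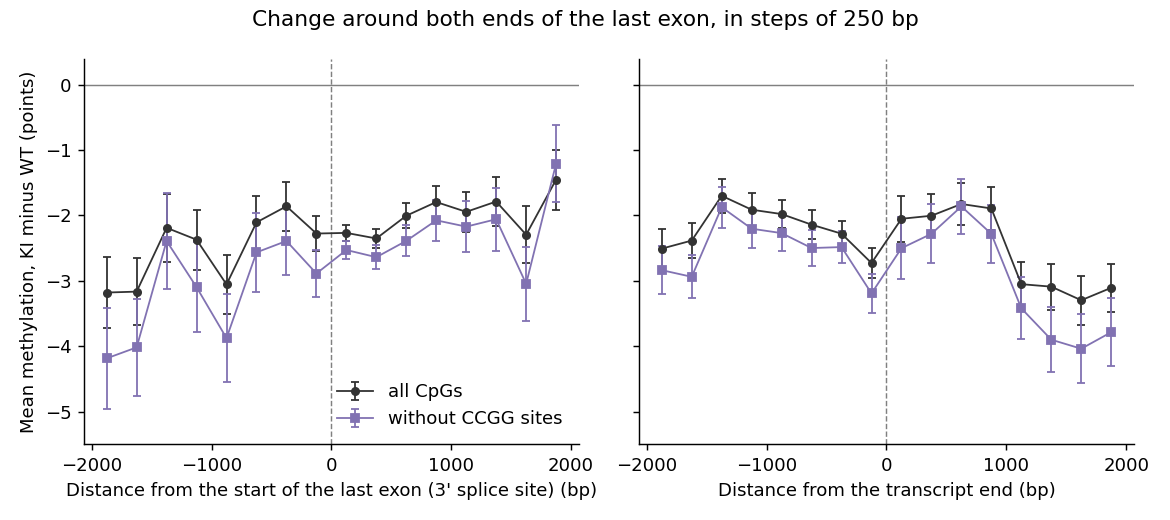
Mean methylation change, KI minus WT in percentage points (y axis), in steps of 250 bp around the start of the last exon (left) and the transcript end (right), for all CpGs (black) and without CCGG sites (purple), with 95% intervals of counting error. The dashed line marks the splice site or the end, exon sequence lies to its right on the left and to its left on the right, and the loss beyond 1000 bp after the end is larger, at −3.05 to −3.30 points for all CpGs.

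CpG density, in which the CpG itself is counted, went with the level more than with the share lost. Last-exon CpGs with 5 to 9 CpGs within 100 bp averaged 71.2% in WT and changed by −2.38 points, those with 10 to 14 by −2.30 from 69.3%, those with 15 to 19 by −1.59 from 47.0%, and the 6154 with 20 or more by −1.13 from 21.3%. Relative to the WT level these were changes of −3.35%, −3.32%, −3.38% and −5.31%. With 20 or more CpGs around, last exons did not lose least in points. Introns changed by −0.170 from 10.2% and sequence between genes by −0.760 from 7.65%, while internal exons changed by −1.61 from 26.1%. The sparsest CpGs of last exons, with 1 to 4, changed by −2.11 points from 61.1%, but by −3.08 without CCGG sites.

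Among single CpGs, calls of loss were fewer than in the whole series. By Fisher's exact test, with calls made at adjusted p under 0.05 and more than 25 points, 292 last-exon CpGs were lower in KI, or 0.455%, against 1.09% of all shared CpGs, and 35 were higher, or 0.0545%, against 0.0474%. A low share was not particular to last exons: 0.578% of CpGs were called lower in internal exons and 0.895% in introns. Between genes it was 2.15%. The median of the lower CpGs of last exons went from 78.4% in WT to 40.3% in KI, and they lay in 212 genes, 164 of them with only 1. Krt86 had the most, 11. Outside CCGG sites, where the other strand of a lower CpG was also measured, it was lower too at 207 of 240 CpGs. Its median change there was −15.1 points, and it was called at 32. For scale, 52.9% of all last-exon CpGs, CCGG sites included, read lower in KI. Of the calls outside CCGG sites, 84 had A or T on both sides (1.03% of such CpGs), 130 on 1 side (0.568%) and 38 on neither (0.261%). With the reads of both strands summed, the lower calls numbered 183.

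Changes from a high to a low level were rare. Of 38362 last-exon CpGs above 70% in WT, 30 were below 20% in KI, or 0.0782%, and 27 of these had fewer than 10 reads in a library. The only one with at least 20 reads in both lay in Gm9573 at position 35754981 of chromosome 17, at 81.8% in WT, with 33 reads, and 18.2% in KI, with 44. Of 16311 below 20% in WT, 16 were above 70% in KI.

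Exon by exon, the shift was small and broad. The 3073 last exons with at least 5 shared CpGs had a median of 14 and at most 253. Their median level was 71.5% in WT and 69.4% in KI, and their median change was −1.86 points, with quartiles of −4.33 and 0.0429 and a median counting error of 1.78 points. The mean was lower in KI in 2287 and higher in 784. The mean was thus lower in 74.4% of last exons, against 76.6% of internal exons, with a median change of −2.06 points, and 81.2% of introns, with −2.41. Over the whole table, 66.5% of all 25318 gene features tested were lower and their median change was −0.833 points, which includes 8652 first exons, whose median WT level was 0.161%.

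By the Cochran-Mantel-Haenszel test, stratified by CpG, at an adjusted p under 0.05, 911 of 3073 last exons were lower and 74 higher. The share of all gene features past this cut alone was not counted, so these numbers do not set last exons apart. With a change of at least 10 points as well, 123 last exons were called lower, or 4.003%, against 2.93% of all gene features, and 14 higher, or 0.456%, against 0.209%. The share called lower was 4.59% for internal exons and 3.73% for introns, on either side of that for last exons. The median of the called losses went from 63.1% in WT to 50.8% in KI, over a median of 12 CpGs. These counts rest on treating the CpGs of an exon as separate evidence. With the reads averaged over the CpGs of each exon, 0 exons were called in either direction by Fisher's exact test (21 lower and 0 higher at an unadjusted p under 0.05). By the stratified test 129 were lower and 12 higher with 1 CpG kept in every 100 bp. CpGs kept in adjacent stretches of 100 bp can still lie on 1 read, so this setting does not remove the dependence.

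**Figure D5:**
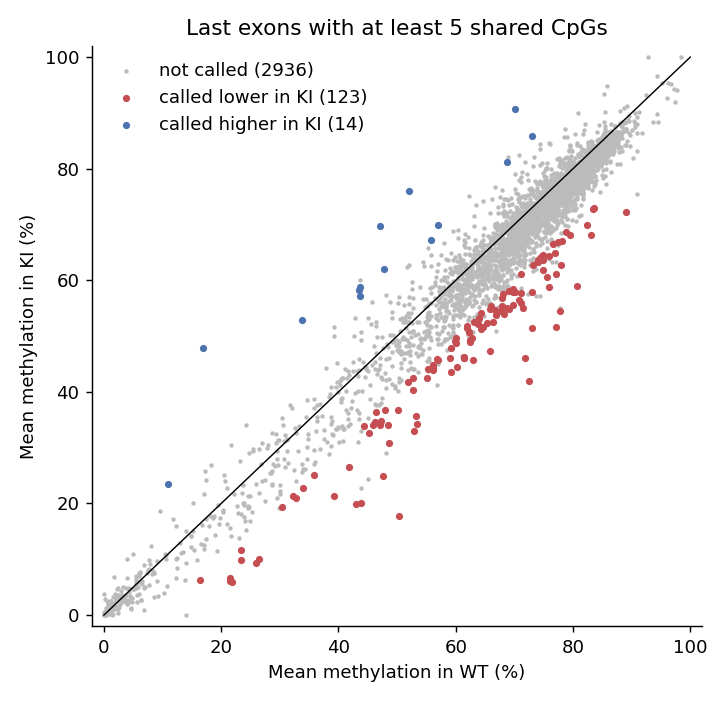
Mean methylation of each of the 3073 tested last exons in WT (x axis, percent) and KI (y axis, percent), with the 123 called lower in red, the 14 called higher in blue and the line of equality in black. Most exons lie close to the line at 60% to 90%, with a second group below 20%, and the called losses lie mostly at WT levels of 40% to 80%.

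Exons at middle levels were called most often. Grouped by one part of the WT reads, 186 exons below 20% had 3 called lower, or 1.61%, 140 at 20% to 40% had 10, or 7.14%, 403 at 40% to 60% had 35, or 8.68%, 1729 at 60% to 80% had 69, or 3.99%, and 615 at 80% or more had 6, or 0.976%. Their median changes, measured against the other part, were −0.166, −3.63, −2.87, −1.93 and −1.54 points. Length made little difference to the median change, which ran from −1.77 to −1.94 points between the 5 classes of exon length, while 0 of the 83 exons with at least 6 CpGs in 100 bp were called, at a median WT level of 9.08%. An exon below 10% in WT could not be called lower, since a call needs 10 points. This limit bears on the dense exons and on the group below 20%.

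The named losses are the 10 largest among exons with even support, that is, called exons with at least 8 CpGs, 200 reads in each library and 80% of the CpGs changed the same way, and, since the largest changes were picked, the values are a description. The last exon of Wnt3a, a secreted signalling protein of development (chr11:59061535-59063611), averaged 77.0% in WT and 51.7% in KI over 61 CpGs, changing by −25.4 points (SE of counting 2.36), with 56 CpGs lower and 4 higher. The stratified test gave an adjusted p of 2.47e-38. Over its CpGs with at least 20 reads the change was −16.9 points. Internal exons of Wnt3a changed by −9.44 points and its introns, at 18.2% in WT, by −3.08.

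The last exon of Krt86 (chr15:101309807-101310414) averaged 47.6% in WT and 24.8% in KI over 46 CpGs, changing by −22.7 points (SE of counting 1.78). The stratified test gave an adjusted p of 1.14e-75. Of its CpGs, 43 were lower, and the introns of the gene changed by a similar −19.7 points while its internal exons, at 75.6%, changed by −1.96. Among 8 gene families picked after the values were seen, the keratins and keratin-associated proteins had 4 of 10 tested last exons called lower (Krt77, Krt82, Krt86 and Krtap15), against 2.93% of all gene features, and the median change of the 10 was −9.05 points.

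Kcna2, which encodes a voltage-gated potassium channel of neurons (chr3:106906863-106909797), averaged 65.9% in WT and 47.3% in KI over 30 coding CpGs, 26 of them lower. Another of the 8 families was 51 tested last exons of genes named as voltage-gated or potassium channels or their subunits. Of these, 5 were called lower (Cacng2, Kcna2, Kcnk13, Scn11a and Scn7a), against 2.93% of all gene features. A lower mean was seen in 43, against 74.4% of all last exons, and the median change was −3.27 points. Solute carriers had 3 of 68 called lower and Wnt genes 1 of 11, against the same 2.93%. Among solute carriers 1 was also called higher, against 0.209% of all gene features. G protein-coupled receptors named Gpr had 3 of 15 called lower, at a median change of −0.679 points. Glutamate receptors had 1 of 8 called lower and 1 higher, and homeobox genes named Hox 0 of 3. The counts are small and all 8 families were picked after the values were seen. None of the families, the keratins and the channels included, is set apart by them. Actn1, an alpha-actinin that cross-links actin filaments, was among the most deeply read, with 2578 and 2358 reads over 18 CpGs, and fell from 77.9% to 62.7% (SE of counting 1.23), with 17 CpGs lower and none higher. Its adjusted p by the stratified test was 4.11e-32. Its internal exons changed by −3.21 points and its introns by −2.23.

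Pde1b, a calcium-regulated phosphodiesterase, fell from 52.9% to 33.0% over 14 CpGs that all lie in the untranslated part. The small GTPase gene Rab36 fell from 48.6% to 30.8% over 11 CpGs, 1700001L19Rik from 71.4% to 55.1% over 8, all 8 of them lower, and Tmem132d from 59.2% to 43.5% over 8. The exons of Asb15, an ankyrin repeat protein with a SOCS box, and Gfra3, a receptor for a neurotrophic factor, fell from 80.6% to 58.9% and from 53.5% to 34.3% over 10 CpGs each. The calls of Asb15 and Gfra3 did not hold with 1 CpG kept in every 100 bp, where Asb15 changed by −7.36 points and was not called and Gfra3 changed by 7.91 points in the other direction. The only gain that met the same support was that of Celf4, which encodes an RNA-binding regulator of splicing: its last exon read 47.0% in WT and 69.6% in KI over 22 untranslated CpGs, with 20 of them higher, but the change was 12.1 points over CpGs with at least 10 reads and it was not called with 1 CpG in every 100 bp.

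Of the 5 last exons with the most CpGs, 0 changed by the 10 points a call needs, and 4 changed by less than the class mean in size, while Cilp2 changed by more. Plec, which encodes the cytoskeletal linker plectin, had 245 CpGs and read 84.7% in WT and 85.0% in KI, with 108 CpGs lower and 123 higher. Bcl11b, a transcription factor of T cells, read 87.6% and 86.0% over 208 CpGs, and Casz1, a zinc finger factor, 36.4% and 35.5% over 234. Cilp2, a protein of cartilage matrix, had the most CpGs, 253, and read 18.9% and 14.3%, changing by −4.56 points (SE of counting 0.435). The homeobox gene Evx2 read 4.36% and 2.74% over 199 CpGs, too low in WT for a loss of 10 points.

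Low last exons stayed low and high ones mostly stayed high. Of 180 exons below 20% in WT, 173 were below 20% in KI, 1 was called lower (Krt77) and 2 higher (Cdx2 and Met). Over all gene features, 2.93% were called lower and 0.209% higher. The median WT level of the 180 exons was 4.68%, so most of them could not lose the 10 points a call needs. The 180 exons had a median of 4.84 CpGs in 100 bp against 1.84 for the other exons. Of 602 exons at 80% or more in WT, 403 were still at 80% or more in KI and 6 were called lower, against the same 2.93%. The median of the 602 went from 83.4% in WT to 81.8% in KI. Both groups were picked by the same WT reads that KI was compared with, so these counts are a description.

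Last exons of genes with known roles in the liver were seldom covered. Too few were tested for their counts of calls to be read against the 2.93% called lower over all gene features. Of 30 genes of secreted hepatocyte proteins, 1 was tested: F10, coagulation factor X, read 82.5% in WT and 76.5% in KI. Of 26 genes of hepatocyte metabolism, 3 were tested and 0 called, among them G6pc, the glucose-6-phosphatase of gluconeogenesis, at 68.2% and 71.6%, and Asl, the argininosuccinate lyase of the urea cycle, at 71.2% and 68.9%, and the changes of all 3 ran from −14.8 to 3.32 points. G6pc turned to −0.397 points at 10 reads and −0.441 at 20. Of 18 genes of hepatocyte transcription factors and nuclear receptors, 3 were tested and 0 called, with Rxra, the partner of many nuclear receptors, at 73.1% and 75.5%, a gain that turned to −0.903 points without CCGG sites and −1.70 with strands summed. Gusb, the lysosomal beta-glucuronidase, was the only one of 20 housekeeping genes tested, and read 68.0% and 67.5%.

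Too few last exons of genes of other cell types of the liver were tested for their count of calls, 0, to be read against the 2.93% of all gene features. The tested exons were 2 for blood and Kupffer cells, with Csf1r, a macrophage receptor, at 74.3% in WT and 66.4% in KI and Cd4 at 68.9% and 66.9%, 3 for endothelium, with Eng at 69.1% and 65.9% and Cdh5, the cadherin of endothelial junctions, at 69.4% and 66.7%, 1 for stellate cells, Cygb, at 73.3% and 82.0%, and 2 for cholangiocytes, with Epcam at 75.2% and 77.2%. These are levels of DNA methylation and say nothing of how many such cells each pool held. The changes of Csf1r and Cygb depended on the setting. Csf1r changed by −7.96 points, by −12.0 without CCGG sites, where it was called lower, by −2.54 at 10 reads, and by 1.12 at 20 reads and 0.524 with 1 CpG in every 100 bp, in the other direction. Cygb changed by 8.70 points, was called higher without CCGG sites, and turned to −5.56 with 1 CpG in every 100 bp. The gain of Epcam also turned, to −3.31 with 1 CpG in every 100 bp, −0.559 with strands summed and −0.364 at 20 reads.

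Among the genes of DNA and H3K9 methylation, 8 of 32 could be tested and 0 were called, with a median change of −2.07 points. At the 2.93% called lower over all gene features, so few exons could hold no call without differing from the rest. Tet3, which oxidises 5-methylcytosine, read 75.8% in WT and 77.7% in KI over 82 CpGs, and Kdm4a, an H3K9 demethylase, 57.4% and 57.0% over 42. The de novo methyltransferase genes Dnmt3a and Dnmt3b read 55.8% and 53.7%, and 66.9% and 64.6%. The last exons of Uhrf1, Dnmt1, Ehmt2 and Hells had fewer than 5 shared CpGs and were not tested.

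Of 44 genes of developmental transcription factors, homeobox genes with some Tbx, Gata and Sox genes, 15 were tested. They held 0 calls, which so few exons could at the 2.93% called lower over all gene features. Their median WT level was 21.7%, against 71.5% over all last exons. Nkx2-1 read 2.51% in WT and 1.43% in KI over 66 coding CpGs. Of 16 collagen genes, 6 were tested and 1, Col11a2, was called lower, against 2.93% of all gene features, with a median change of −4.09 points. Over all 17 tested last exons of genes named as collagens, 2 were called lower, Col11a2 and Col14a1. Col6a2 and Col6a1, which encode chains of the microfibrillar collagen VI, read 86.3% and 83.2% over 78 CpGs and 86.4% and 81.3% over 25.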

How the data were processed

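Liver DNA of WT and KI mice was measured by RRBS in 1 library per genotype. Alignment to mm9 was done by the authors, who kept unique alignments, and the submitters' processing notes name Bismark 0.12.20. For each cytosine in a CpG the deposited files give the coverage as a read count and the methylated share of these reads as a percent. Methylated reads were taken as coverage times percent, and came out whole for 100% of the values within their rounding. How duplicate reads were handled is not given in the sources used here.

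Gene models came from GENCODE for mm9. CpGs had equal weight in means, whose 95% intervals cover counting error. Fisher's exact test was used for single CpGs, and for gene features (first exon, internal exons, introns and last exon of a gene, with at least 5 CpGs) the Cochran-Mantel-Haenszel test stratified by CpG. Both were two-sided, and p-values were adjusted by Benjamini-Hochberg across the whole table of CpGs or of features, in Python 3.11.15 with scipy 1.17.1, checked on simulated data. Named exons were the 10 largest losses and gains with even support as the report defines it, the 5 with the most CpGs, the 2 with the most CpGs of each of 11 gene lists, and genes of the maintenance machinery. Some exons that this rule names are not reported here. The class of sequence, the lists and the rules were chosen with earlier results of these data known, and the 8 gene families after the values were seen. Alternatives were coverage minimums of 10 and 20, CCGG sites left out, both strands summed, equal reads, other weights, tests, distances and minimums, and chromosome 17 left out. Coordinates are 1-based in mm9.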

Additional observations from a re-analysis of the deposited data

How the results depend on the processing

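No paired analysis was possible because each genotype had 1 library, and no library could be left out for the same reason. The alternatives limit some values. The change of −2.13 points over last exons was −2.31 with CpGs weighted by reads, −2.27 with equal weight for each exon, −2.44 without CCGG sites and −2.31 more than 5 kb from a start. Last exons lost less than each other class in each of 11 alternatives, by 0.219 to 0.434 points against internal exons, 0.706 to 1.71 against introns and 1.98 to 4.17 against sequence between genes. Without CCGG sites the coding part changed by −2.43 and the untranslated part by −2.46 (−2.20 with strands summed). CpGs with 1 to 4 around them, themselves counted, changed by −3.08 without CCGG sites. With strands summed, CpGs with 20 or more, counted in the same way, changed by −0.914.

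The change by WT level depended on which reads set the level. CpGs at 80% or more in WT changed by −3.59 points when all WT reads set the level, and by −2.59 when one part of them did, −3.10 and −2.77 at 10 and 20 reads and −3.73 with equal reads. CpGs under 20% changed by 0.687 points, and by −0.273 when one part of the WT reads set the level, 0.247 and 0.0690 at 10 and 20 reads, 1.17 without CCGG sites, 1.54 with strands summed and 0.814 with equal reads.

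Counts moved as follows. CpGs called lower were 183 with strands summed and CpGs called higher 22 without CCGG sites. CpGs going from high to low were 3 and 1 at 10 and 20 reads and 19 beyond 5 kb, and from low to high 1, 0 and 10. Exons called higher were 6 by Fisher's exact test on summed reads, 8 with at least 10 CpGs, 8 and 8 at 10 and 20 reads, and 0 with averaged reads, where 0 were called lower. Exons of the gene lists called lower were 2 with 1 CpG in every 100 bp, 3 without CCGG sites and 0 at 10 reads, 20 reads and equal reads, against 1, and those called higher were 1 with 1 CpG in every 100 bp and 1 without CCGG sites, against 0. The last exon of Gfra3 turned to 7.91 points with 1 CpG in every 100 bp. Of the 11 named exons that were called, 8 were called in each alternative that measured them, and Asb15, Celf4 and Gfra3 were not with 1 CpG in every 100 bp. The causes were not tested beyond what each setting itself changes.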
